A study of Mus musculus with 12 samples.

Results

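The ribosome biogenesis genes described here are a list of 45 genes whose products make, modify, cut and fold ribosomal RNA or build it into the small and large ribosomal subunits. A member was measured when the platform annotation gave its symbol as the only symbol of a probe set, the group of array probes that reads 1 transcript. This held for 41 of the 45 members, out of 30464 named genes on the array. Nop56, Gnl3 and Ebna1bp2 each shared a probe set with another symbol (Snord57, Snord19 and D4Ertd617e), and Npm3 was not in the platform table, so these 4 members are not analysed here. Each of the 41 had 1 probe set, and all 41 were among the 18119 genes tested. The Mrto4 probe set carries 3 gene numbers, so near-identical copies may add to its signal and its values are uncertain.

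RNA was measured on 12 Affymetrix arrays in RAW264.7 cells, a macrophage-like mouse cell line, after 24 h of culture, with 3 arrays in each of 4 media. The first was normal medium (RPMI with fetal bovine serum; replicates 2, 3 and 4). The other media held 50% conditioned medium: from SCR PyMT-41C cells (SCR medium; replicates 1, 3 and 4), from JMJD6-KO PyMT-41C cells (KO medium; replicates 1, 2 and 3), or from SCR PyMT-41C cells with CSH, described in the series' design as a blocker of the ANXA-1 receptor (SCR+CSH medium; replicates 1, 2 and 4). The knockout was thus in the cells that conditioned the medium and not in the measured cells. The groups named in the labels do not include CSH in normal medium or a vehicle for CSH, and CSH was therefore compared with SCR medium. Whether the arrays of a group came from separate cultures is not stated. The p-values therefore rest on array-to-array spread that may be technical alone.

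Ribosomes are assembled mainly in the nucleolus. RNA polymerase I transcribes one long precursor RNA there, which guide RNA-protein complexes of the box C/D and box H/ACA classes modify by methylation and by conversion of uridine to pseudouridine. Early factors on the precursor form the small subunit processome, and separate sets of helicases, scaffolds and placeholder proteins then carry the small and the large subunit to the cytoplasm. Many of these genes are known targets of MYC, and they are typically raised in cells that are preparing to grow and divide.

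Signals are in log2 units after RMA, the array summary method, and means carry ± 1 SD over the 3 arrays of a medium (n = 3). Each difference is a log2 change whose standard error (SE) comes from limma, a linear model fitted to all genes, and a gene was called changed when its Benjamini-Hochberg adjusted p over all 18119 genes was below 0.05. The array medians over all probe sets lay between 5.40 and 5.52. Of 13 macrophage marker genes, all 13 were above the filter on low values, with a log2 summed signal of 19.14 to 19.28 over the 12 arrays. Of 14 mammary epithelial tumour markers, the cell type that gave the conditioned media, 3 were above the filter, with a log2 summed signal of 8.76 to 8.86, and none of the 4 measured fibroblast markers was (6.71 to 6.89). These sums are of unlogged signals and so rest mostly on the brightest markers. From normal to SCR medium 3 of the 13 macrophage markers were called higher and 6 lower, against 19.3% and 15.8% of all genes tested. Among them Csf1r changed by -1.79, Adgre1 by -1.45 and Itgam by 0.97 (adjusted p of 2.7e-06, 1.3e-07 and 1.4e-05 with limma). The part of these shifts in the results below was not tested. In such bulk samples a smaller number of cells that express a gene cannot be told apart from less RNA per cell.

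In SCR medium, 13 of the 41 members were higher than in normal medium, 4 were lower and 24 were not called. Among all genes tested, 19.3% were called higher and 15.8% lower. The 13 included 8 of the 13 genes of small subunit assembly and 4 of the 14 of large subunit assembly, whereas 2 of the 6 nucleolar scaffold and regulator genes fell and none rose. The members' median log2 change was 0.08, against 0.02 over all genes tested, and single members ranged from -0.38 for Ddx21 to 0.86 for Wdr74, a largest fold of 1.81. The arrays of SCR medium lay wholly above those of normal medium for 14 of 41 members and wholly below for 7 of 41. Over all genes tested these counts were 4262 and 3576 of 18119 (23.5% and 19.7%).

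The largest rise was that of Wdr74, a factor of the large subunit precursor that is the counterpart of yeast Nsa1 (chromosome 19, 8735795 to 8740624 on GRCm38.p6). Its signal was 10.08, 10.61 and 10.23 in normal medium and 11.45, 10.97 and 11.08 in SCR medium. All SCR arrays lay above all arrays of normal medium, and the log2 change was 0.86 (SE 0.14, adjusted p = 0.000286). Noc3l, which works with its partner Noc2l on early large subunit precursors, moved from 8.72 ± 0.02 to 9.12 ± 0.09, with SCR arrays at 9.21, 9.03 and 9.13 against 8.70, 8.74 and 8.71. This was a change of 0.41 (SE 0.06, adjusted p = 9.8e-05). Nip7, a protein needed for maturation of large subunit RNA, changed by 0.39 (SE 0.09, adjusted p = 0.00345), and Grwd1, a chaperone of a large subunit protein, by 0.20 (SE 0.06, adjusted p = 0.0146). The Grwd1 call was lost without normal replicate 2 or SCR replicate 1, after median centring, and with the 6 arrays of the comparison alone.

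Noc2l itself fell. It read 11.21, 11.24 and 11.16 in normal medium and 11.03, 10.89 and 10.93 in SCR medium, without overlap, a change of -0.25 (SE 0.06, adjusted p = 0.00461). The known partners Noc3l and Noc2l thus passed the test in opposite directions. The other 9 genes of large subunit assembly were not called. Among them Pes1, Bop1 and Wdr12, which together form the PeBoW complex, had changes of -0.13, -0.14 and -0.02, with adjusted p of 0.186, 0.384 and 0.907 in the limma fit. Nop2, a methyltransferase of large subunit RNA, read 10.74, 10.20 and 10.64 in SCR medium against 10.11, 10.36 and 10.19. SCR replicate 3 lay inside the range of normal medium, and the change of 0.31 missed the threshold (SE 0.12, adjusted p = 0.061). Rrs1, which helps to install the small RNA of the large subunit, had 0.15 (adjusted p = 0.0545). Rrp1b, Ddx18, Nop16 and Mrto4 lay between -0.14 and 0.11, and none of them was called.

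Small subunit assembly was the group with the most calls, with 8 rises, 0 falls and a median change of 0.31. Utp20, a large scaffold protein of the processome, read 8.86, 9.09 and 8.82 in normal medium and 9.64, 9.27 and 9.39 in SCR medium, a change of 0.51 (SE 0.11, adjusted p = 0.00218). Utp15, of the subcomplex that binds the start of the precursor RNA, read 9.69, 9.79 and 9.53 against 10.27, 9.94 and 10.26, a change of 0.49 (SE 0.09, adjusted p = 0.000935). In both genes every SCR array was above every array of normal medium. Rrp9, a protein of the U3 snoRNP, which pairs with the precursor, rose from 8.69 ± 0.07 to 9.07 ± 0.12, a change of 0.39 (SE 0.07, adjusted p = 0.000647).

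The remaining rises in small subunit assembly were close to each other in size. Imp4, which helps U3 RNA to pair with the precursor, changed by 0.38, and Ltv1, a late factor that leaves the subunit in the cytoplasm, by 0.36. Noc4l and Nop14, which bind each other, changed by 0.35 and 0.28, and the helicase Ddx10 by 0.31. Their adjusted p values in the limma fit lay between 0.000863 for Noc4l and 0.00474 for Nop14. Imp4 was the most even of them in normal medium, at 11.69, 11.68 and 11.70, and stood at 12.19, 11.95 and 12.06 in SCR medium. The other 5 genes of this group were not called. Utp4, of the same subcomplex as Utp15, had 0.18, Bysl 0.09, Tsr1 0.08, Wdr43, again of that subcomplex, -0.0033, and the export factor Rrp12 -0.12, which was the smallest value of the group.

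All 6 nucleolar scaffold and regulator genes had changes below 0 in SCR medium, with a median of -0.18, and 2 of them passed the test. With array weights, without normal replicate 3 or without SCR replicate 3, 1 of the 6 lay above 0. Ddx21, a nucleolar helicase that acts on RNA polymerase I and II transcription and on guide RNAs (chromosome 10, 62580247 to 62602298 on GRCm38.p6), read 13.27, 13.21 and 13.20 in normal medium and 12.94, 12.79 and 12.81 in SCR medium. The groups were wholly apart, and the change was -0.38 (SE 0.05, adjusted p = 0.00012). Pa2g4, a growth-regulating protein that binds ribosome precursors, read 13.85, 14.00 and 14.09 against 13.77, 13.62 and 13.70. Its change of -0.28 (SE 0.09, adjusted p = 0.0227) was called with all arrays in the fit. Without normal replicate 3 or 4, or without SCR replicate 3 or 4, its adjusted p was 0.0601, 0.0961, 0.0779 and 0.0551.

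The other 4 scaffold genes were not called. Nolc1, a chaperone of guide RNA complexes, had -0.26 with a wide spread in SCR medium (11.17, 10.78 and 10.86; adjusted p = 0.111). Npm1, an abundant nucleolar chaperone, had -0.10 (adjusted p = 0.0979), Ncl, which binds nascent precursor RNA, -0.02 (adjusted p = 0.767), and Mybbp1a, a nucleolar regulator of transcription, -0.0033 (adjusted p = 0.984).

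Of the 3 RNA polymerase I subunits, Polr1c, which RNA polymerase III also contains, fell from 11.50 ± 0.07 to 11.29 ± 0.05, a change of -0.21 (SE 0.06, adjusted p = 0.00889). Its arrays read 11.48, 11.58 and 11.45 in normal medium and 11.34, 11.28 and 11.25 in SCR medium, without overlap. The subunits that form the catalytic centre were not called: Polr1a had 0.22 (adjusted p = 0.0742) and Polr1b -0.08 (adjusted p = 0.474). In the box C/D class, the core protein Nop58 was called with 0.28 (SE 0.10, adjusted p = 0.0489), but normal replicate 3, at 13.07, lay above SCR replicates 3 and 4, at 13.04 and 13.00. This call was lost when normal replicate 2 or 4 or SCR replicate 1 or 3 was left out, and in most other alternatives. Fbl, the methyltransferase of that class, had -0.06 (adjusted p = 0.378). In the box H/ACA class none of 3 was called: Dkc1, the pseudouridine synthase, had 0.08, and the core proteins Gar1 and Nhp2 had 0.10 and -0.11, with adjusted p of 0.678, 0.2 and 0.268 in the limma fit.

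**Figure D1:**
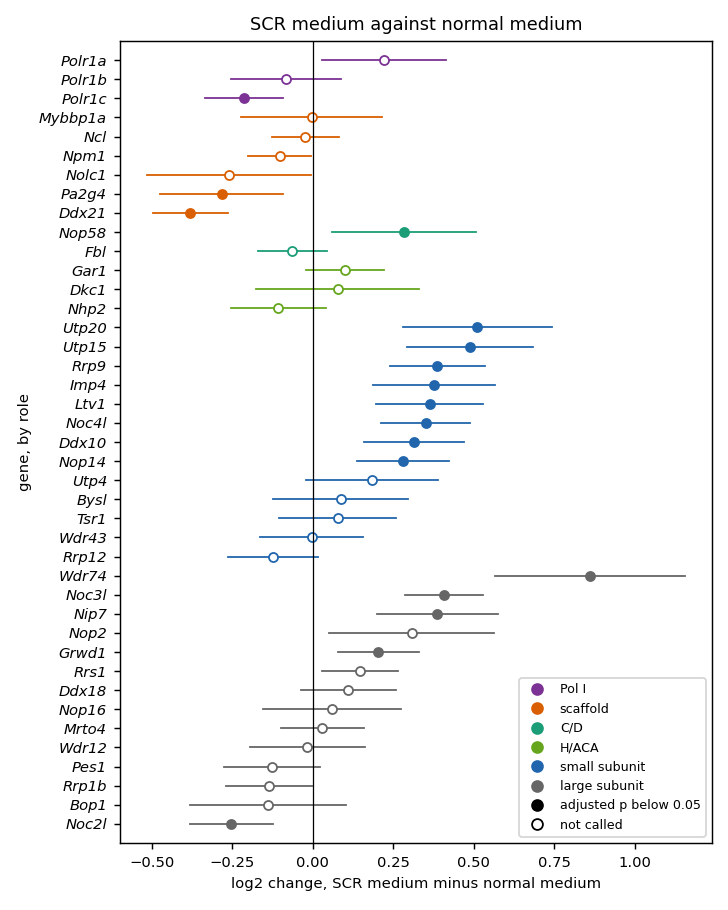
Log2 change from normal medium to SCR medium for the 41 measured genes, grouped and coloured by role, with 95% confidence intervals of the limma fit over 12 arrays; filled points have an adjusted p below 0.05. The 8 filled points of small subunit assembly lie to the right of 0, Wdr74 is farthest right at 0.86 and Ddx21 farthest left at -0.38.

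Promoter sequences from RefSeq on GRCm38.p6 were present for 36 of the 41 measured members, and were searched over the 250 bases before the start on both strands. The E-box CACGTG, the sequence that MYC with its partner MAX binds, was in 2 of 36 (5.56%), those of Imp4 and Nop2, against 9.64% of 9480 protein-coding genes tested. CCGGAAG, a motif of ETS factors, was in 11 of 36 (30.6%) against 15.3%, CCAAT in 30.6% against 40.7%, and TATAAA in 5.56% against 9.27%. Among the 13 members that rose in SCR medium, CCGGAAG was in 5 (Wdr74, Nip7, Ltv1, Ddx10 and Grwd1), in Polr1c alone among the 4 that fell, and in 26.3% of the 19 not called that have a promoter. CCAAT was in 7 of the 13 that rose, in 0 of the 4 that fell and in 21.1% of those not called. These shares were not tested against each other. A match is a run of letters and not a shown binding site. The stretches of the 2 E-box members are shown, with the motif in capitals, because the family is known for this motif and few members carry it in these 250 bases. Sequence after the start was not searched. Of 40 listed members with a promoter, 29 had a start at the RefSeq gene start and 11 did not. The Imp4 site begins 121 bases and the Nop2 site 60 bases before the start. The Imp4 stretch is chr1:34439651-34439770 and the Nop2 stretch is chr6:125131763-125131882, both on the plus strand. The Nop2 stretch also holds CCGGAAG, in lower case.
Imp4: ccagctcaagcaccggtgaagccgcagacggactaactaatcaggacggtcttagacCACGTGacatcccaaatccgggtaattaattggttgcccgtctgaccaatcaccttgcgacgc
Nop2: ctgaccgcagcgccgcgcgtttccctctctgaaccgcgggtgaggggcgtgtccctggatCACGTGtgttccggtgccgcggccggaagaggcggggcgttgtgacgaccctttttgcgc

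The members with the largest rise and the largest fall, chosen after their values were seen, are shown for comparison, with CCGGAAG in capitals. The Wdr74 stretch (chr19:8735719-8735818, plus strand) ends with this motif, which begins 27 bases before the start in the table, and its last 24 bases lie within the RefSeq bounds of the gene. The Ddx21 stretch (chr10:62602299-62602418, minus strand) ends at the start and holds no exact CCGGAAG or CACGTG on either strand. It does hold gcggaag on each strand (written cttccgc for the other one), which differs from CCGGAAG in the first base. Such near matches were not counted in any gene.
Wdr74: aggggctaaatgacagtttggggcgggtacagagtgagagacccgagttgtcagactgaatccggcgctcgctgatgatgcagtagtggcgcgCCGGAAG
Ddx21: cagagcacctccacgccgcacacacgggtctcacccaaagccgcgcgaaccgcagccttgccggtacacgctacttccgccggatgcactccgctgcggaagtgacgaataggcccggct

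Some members also carry guide RNAs in their own bounds. By RefSeq bounds, strand not used, 5 of the 41 measured members (12.2%: Nop58, Ncl, Dkc1, Wdr43 and Tsr1) enclose at least 1 small nucleolar RNA, against 1.88% of 11564 protein-coding genes tested. Nop58 encloses 4 and Wdr43 3 of them. Of these 5 hosts, Nop58 was called in SCR medium and the other 4 were not. The arrays here read the host's symbol, and values of the enclosed RNAs were not used.

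The SCR arrays did not stand at one level for these genes. SCR replicate 1 was the highest of its group in 39 of 41 members and above the group mean in 40, whereas SCR replicate 3 was above the group mean in 3. The median over the members, relative to the mean of normal medium, was 0.22 in SCR replicate 1, -0.02 in replicate 3 and 0.05 in replicate 4, while the median of all genes tested was 0.01, 0.02 and 0.02. It was 0.06, -0.02 and 0.08 in KO medium and 0.14, 0.23 and 0.17 in SCR+CSH medium. Within normal medium, replicate 3 was the highest in 27 of 41. Pairs of members had a median Pearson correlation of 0.49 over the deviations of the 12 arrays from their group means, and 91.1% of the pairs were positive, a description of genes read on the same arrays. Without SCR replicate 1 the members' median in SCR medium was 0.015, with 11 rises and 5 falls, and without SCR replicate 3 it was 0.15, with 15 rises and 3 falls. It was 0.13 without normal replicate 3, with 14 rises and 3 falls. Without either of the named SCR arrays small subunit assembly kept 8 rises and 0 falls, with medians of 0.29 and 0.38.

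**Figure D2:**
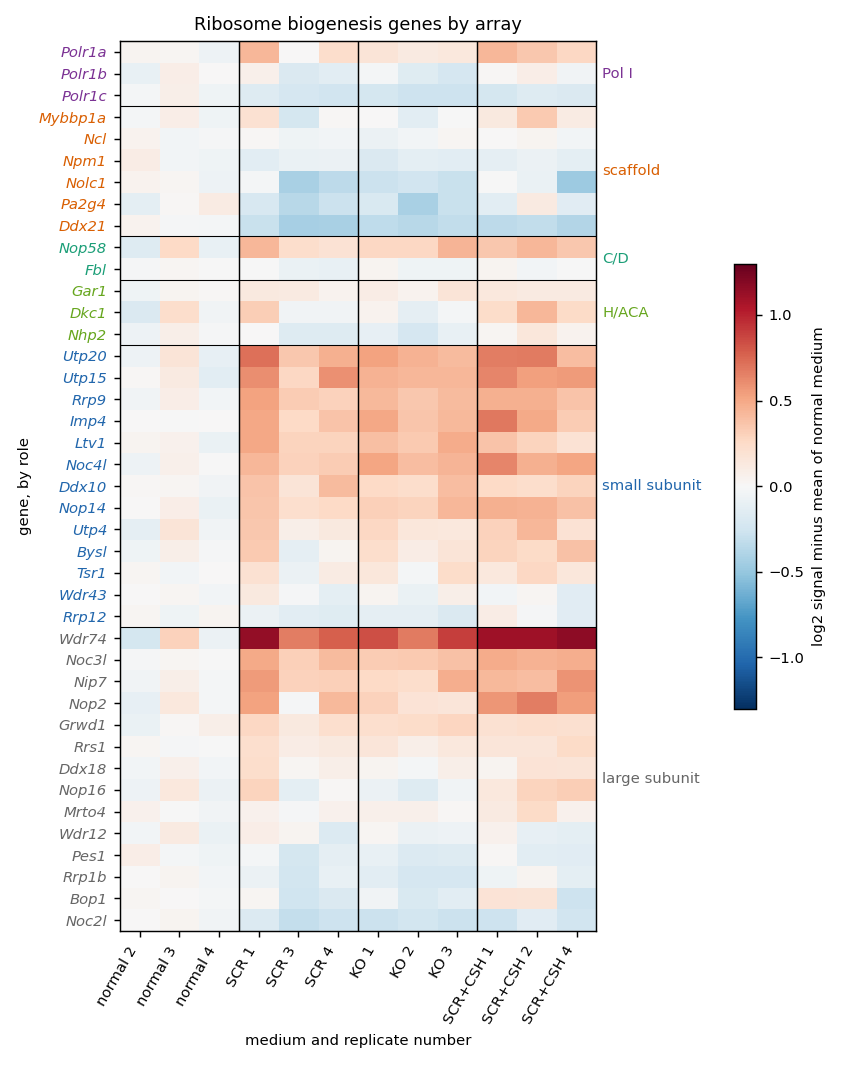
Log2 signal of each of the 41 measured genes in each of the 12 arrays minus the gene's mean in normal medium, ordered by role; red is above and blue below normal medium. The column of SCR replicate 1 is redder than those of SCR replicates 3 and 4, and the rows of small subunit assembly are red in all conditioned media for the 8 genes called.

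KO medium did not differ from SCR medium in any member by the test. With limma, 0 of 41 members were called higher and 0 lower, against 0.254% and 0.0166% of all genes tested (46 and 3 genes). These were 18 to 48 and 0 to 4 genes with 1 array left out, and 220 and 156 with array weights. The weights were 6.14 for SCR replicate 4, and 0.53 and 0.39 for SCR replicates 1 and 3. The weighted SCR values thus rest mostly on 1 array. In the main fit 0 of 41 members had an unadjusted p below 0.05, against 1078 of 18119 genes tested. The changes ran from -0.15 for Nop16 to 0.10 for Noc4l, with a median of -0.02, and the arrays were wholly apart in 0 members, while over all genes tested they were wholly higher in 5% and wholly lower in 4.37%. The 95% confidence intervals of all members lay between -0.37 (Nop16) and 0.29 (Bysl) on the log2 scale, so larger differences were outside them.

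Even the members with the smallest p in this comparison had groups that overlapped. Noc4l read 8.14, 8.02 and 8.07 in KO medium and 8.05, 7.92 and 7.95 in SCR medium, a change of 0.10 (SE 0.06, adjusted p = 0.968). Nop16, a large subunit factor, read 11.40, 11.31 and 11.43 against 11.76, 11.35 and 11.49, a difference of -0.15 (SE 0.10, adjusted p = 0.98) that was -0.04 without SCR replicate 1. Ddx18, Npm1 and Nop14 had -0.08, -0.05 and 0.06, each with an adjusted p of 0.995. Wdr74, the member that rose most in SCR medium, read 11.14, 10.98 and 11.21 in KO medium, a difference of -0.06 from SCR medium (95% interval -0.35 to 0.24). The sign of the members' median turned when SCR replicate 1 was left out, from -0.02 with 15 of 41 members above 0 to 0.03 with 35 of 41. No member was called in either case. In the main fit 48.7% of all genes tested were above 0.

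SCR+CSH medium also gave no calls among the members. With limma, 0 of 41 were higher and 0 lower than in SCR medium, as were 0% of all genes tested in either direction (smallest adjusted p 0.0607, with 1131 genes at an unadjusted p below 0.05). With array weights, 55 genes were called higher and 24 lower, and with the stricter filter on low values 1 and 0. There were 0 members among them in either. The weighted counts rest mostly on SCR replicate 4, as above. In the fit without weights 6 of 41 members had an unadjusted p below 0.05, all with higher signal. The median change was 0.08 over the members and 0.01 over all genes tested. Of the members 36 of 41 were above 0, against 55.6% of all genes tested. The median was 0.14, with 38 members above 0, without SCR replicate 1 and 0.04, with 31 above 0, without SCR replicate 3. Quantile normalization gave 31 members above 0 and a median of 0.07.

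The CSH arrays lay wholly above the SCR arrays in 5 of 41 members and wholly below in 0 of 41. Over all genes tested these counts were 998 and 559 of 18119 (5.51% and 3.09%). Noc4l read 8.26, 8.09 and 8.14 against 8.05, 7.92 and 7.95, a change of 0.19 (SE 0.06, adjusted p = 0.722). Nop2 read 10.79, 10.89 and 10.76 against 10.74, 10.20 and 10.64, a change of 0.29 (SE 0.12, adjusted p = 0.77), and this was 0.12 without SCR replicate 3. Pa2g4, which fell in SCR medium, read 13.84, 14.10 and 13.83 with CSH, a change of 0.23 (SE 0.09, adjusted p = 0.764). Nhp2 had 0.18 (adjusted p = 0.76) and Nop14 0.15 (adjusted p = 0.785). Ltv1 had the lowest value, -0.08 (adjusted p = 0.926). The 95% confidence intervals over the members reached from -0.25 (Ltv1) to 0.56 (Wdr74).

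**Figure D3:**
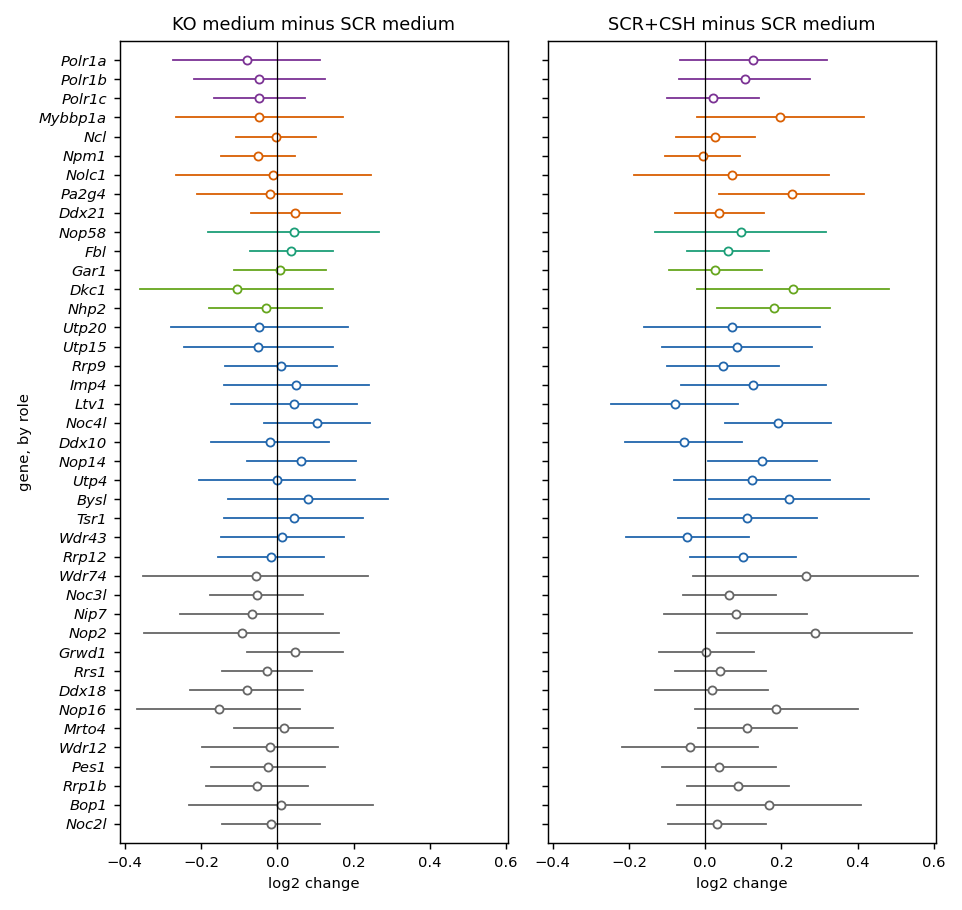
Log2 change of the 41 measured genes in KO medium (left) and in SCR+CSH medium (right) against SCR medium, with 95% confidence intervals of the limma fit; open points were not called. In the left panel changes run from -0.15 to 0.10. In the right panel 36 of 41 points lie above 0, against 55.6% of all genes tested.

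Against normal medium, KO medium gave 13 rises and 6 falls among the members (21.4% and 17.6% of all genes tested). SCR+CSH medium gave 18 rises and 3 falls (20.9% and 14.9%). Over the alternatives fitted at the main threshold, SCR+CSH medium gave 12 to 20 rises and 2 to 5 falls. KO medium gave 12 to 14 rises and 4 to 9 falls. After median centring, 15 of the 21 calls in SCR+CSH medium were kept. The comparisons with normal medium, that of SCR medium included, share its 3 arrays, so their values are given side by side. Wdr74 changed by 0.86 in SCR medium, 0.80 in KO medium and 1.12 in SCR+CSH medium. Utp20 changed by 0.51, 0.46 and 0.58, Utp15 by 0.49, 0.44 and 0.57, and Noc4l by 0.35, 0.45 and 0.54. Each of these had an adjusted p below 0.05 in all of the comparisons. Ddx21 changed by -0.38, -0.33 and -0.34, also called in each.

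Some members were called in only part of these comparisons, and the differences between the media themselves were not called. Pa2g4 changed by -0.28 in SCR medium, -0.30 in KO medium (adjusted p = 0.0142) and -0.06 in SCR+CSH medium, where it was not called. Npm1 and Rrp1b had -0.15 (adjusted p = 0.0157) and -0.19 (adjusted p = 0.0261) in KO medium. Nop2, Polr1a, Utp4, Bysl and Rrs1 had 0.59, 0.35, 0.31, 0.31 and 0.19 in SCR+CSH medium, with adjusted p from 0.00157 for Nop2 to 0.0251 for Bysl in the limma fit. Small subunit assembly had 8 rises of 13 in KO medium and 10 of 13 in SCR+CSH medium, with medians of 0.34 and 0.31. Over the alternatives fitted at the main threshold it had 8 to 9 and 6 to 10 rises. Median centring lost the SCR+CSH calls of Rrs1, Utp4, Ddx10, Grwd1, Ltv1 and Bysl, and the KO call of Rrp1b. The replicate block also lost the SCR+CSH calls of Rrs1, Utp4 and Bysl, and quantile normalization lost the KO call of Npm1.

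Between KO medium and SCR+CSH medium, 0 of 41 members were called in limma in either direction, against 1.21% higher and 0.695% lower among all genes tested. An unadjusted p below 0.05 was found for 9 of 41 members and for 2849 of 18119 genes tested. The median difference of KO minus SCR+CSH medium was -0.09, with 6 of 41 members above 0. Over all genes tested it was -0.02, with 43.5% above 0. The arrays of KO medium lay wholly below those of SCR+CSH medium in 12 of 41 members, against 2196 of 18119 genes tested (12.1%). The smallest adjusted p was 0.113, that of Nop16, which read 11.40, 11.31 and 11.43 in KO medium and 11.61, 11.76 and 11.79 with CSH, a difference of -0.34 (SE 0.10). Nop2 read 10.52, 10.40 and 10.38 in KO medium and 10.79, 10.89 and 10.76 with CSH, a difference of -0.38 (SE 0.12, adjusted p = 0.141). Both genes had arrays that did not overlap. With SCR replicate 1 or 3 left out of the fit, which pools the spread over all media, 1 member was called lower. With 1 test for any difference among the 4 media, 19 of the 41 members were called, against 36% of all genes tested.

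**Figure D4:**
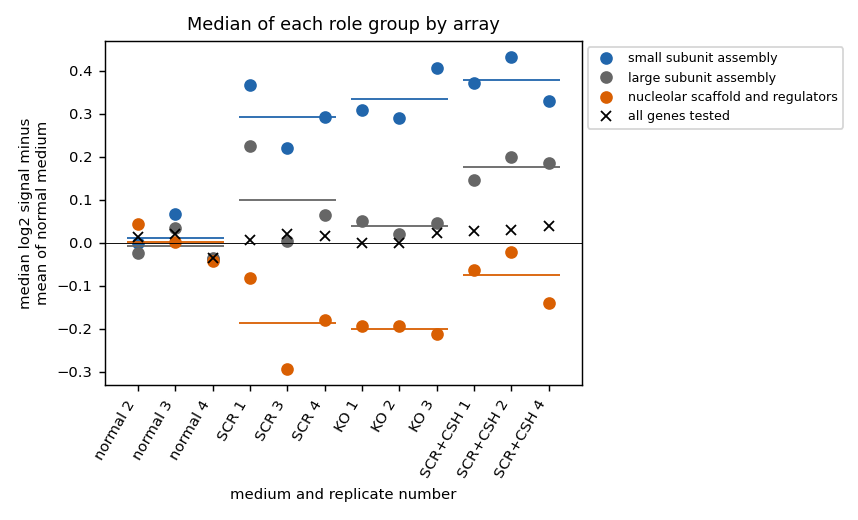
Median over the genes of 3 role groups of the log2 signal minus the mean of normal medium, for each of the 12 arrays (points), with the mean of each medium's 3 arrays (lines); crosses are the median over all genes tested. Small subunit assembly lies at 0.22 to 0.43 in the 9 conditioned-medium arrays, and the nucleolar scaffold group at -0.295 to -0.022.

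In both lists of further assembly factors, rises outnumbered falls from normal to SCR medium. Over all genes tested, 19.3% rose and 15.8% fell. Of 39 other small subunit factors 18 rose and 4 fell (median 0.17), and of 45 other large subunit factors 18 rose and 1 fell (median 0.11). Pno1, which places the end cut of small subunit RNA, rose by 1.52, with arrays at 9.28, 9.81 and 9.34 in normal medium and 11.29, 10.92 and 10.78 in SCR medium (SE 0.16, adjusted p = 1.3e-05). Wdr75, of the same subcomplex as Utp15, rose by 0.56 (adjusted p = 0.000148), and the processome protein Utp3 fell by 0.34 (adjusted p = 0.000159). Sbds, which frees the large subunit for translation, rose by 0.70 (adjusted p = 8.9e-05).

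Of 10 other RNA polymerase I factors 4 rose and 0 fell, among them the initiation factor Rrn3 by 0.43 (adjusted p = 0.000298) and the ribosomal DNA-binding factor Ubtf by 0.24 (adjusted p = 0.00557). Of 17 RNA polymerase III genes 7 rose and 2 fell, and of 13 genes of the RNA exosome, which trims precursor ends, 5 rose and 1 fell. Of 9 other assembly factors of guide RNA complexes, 1 rose, Pih1d1 by 0.52 (adjusted p = 6.9e-05). Among ribosomal protein genes with a probe set of their own, the cytosolic set moved less than the mitochondrial set. Of 39 cytosolic genes 3 rose and 3 fell (median -0.04), and of 75 mitochondrial genes 27 rose and 6 fell. For each list of this paragraph the shares over all genes tested were 19.3% higher and 15.8% lower. The cytosolic set was picked by symbol from the measured genes only, and includes related genes such as Rpl22l1 and Rps27l. The difference between these sets was not tested. In KO and in SCR+CSH medium against SCR medium, none of these lists of pathway and ribosomal protein genes had a gene called by limma, and at most 3 genes of a list had an unadjusted p below 0.05.

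Among 9 tested genes of the MYC network, 1 rose and 3 fell in SCR medium, against 19.3% and 15.8% of all genes tested. Myc itself read 8.07, 7.92 and 7.86 in normal medium, 7.90, 8.03 and 8.0 in SCR medium, 8.30, 8.24 and 8.62 in KO medium and 7.98, 7.86 and 7.86 in SCR+CSH medium. The KO arrays were above all others. The change to SCR medium was 0.03 (adjusted p = 0.869), that from SCR to KO medium 0.41 (SE 0.09, adjusted p = 0.141), that from normal to KO medium 0.44 (adjusted p = 0.00213), and that of KO over SCR+CSH medium 0.49 (adjusted p = 0.0209). The ribosome biogenesis members had no call in the comparisons of KO medium with SCR and SCR+CSH medium. Against normal medium, KO medium gave 13 rises and 6 falls among them (21.4% and 17.6% of all genes tested). Whether the members follow Myc was not tested. The called genes of this network in SCR against normal medium were Mlx, Mycn, Mxd1 and Mxd4. Mlx rose by 0.98 (adjusted p = 4.8e-07) and Mycn fell by 0.38 (adjusted p = 0.003). Mxd1 and Mxd4, repressors that compete for the partner MAX, fell by 0.51 and 0.90 (adjusted p of 0.000523 and 0.000727).

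Genes of nucleotide and polyamine synthesis supply RNA precursors and growth-linked amines. Of 16 tested, 3 rose and 5 fell in SCR medium, against 19.3% and 15.8% of all genes tested. Paics, of purine synthesis, fell by 0.52 (adjusted p = 1.8e-05). Odc1, the first enzyme of polyamine synthesis and a known MYC target, was the one gene of this list called between KO and SCR medium, where it read 13.87, 13.49 and 14.21 against 13.14, 13.09 and 12.92, a change of 0.81 (SE 0.14, adjusted p = 0.0323). Of 16 targets of p53, which is known to respond to faulty ribosome assembly, 6 rose and 2 fell in SCR medium, beside the same all-gene shares. Sesn2 rose by 1.09 (adjusted p = 2.1e-06) and Sesn1 fell by 2.06 (adjusted p = 1.8e-07), in opposite directions within one family. By limma, 0 of the 16 were called in KO or SCR+CSH medium against SCR medium. At an unadjusted p below 0.05 there were 6 and 0 of the 16, against 1078 and 1131 of 18119 genes tested.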

How the data were processed

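RNA of 12 RAW264.7 samples was read on 1 Affymetrix array each, in 4 media with 3 arrays per group. The deposited values are log2 signals that the authors made with RMA in Affymetrix Expression Console on build mm10, per the submitters' processing notes. No tool version is given in the sources used here. Because RMA puts all arrays on a common scale, a change in the RNA content of a cell would not show. Precision is limited by the number of arrays. Of 65528 probe sets, 31018 had 1 gene symbol in the platform table, 1478 several and 33032 none listed; names were updated through RefSeq (GRCm38.p6, the assembly of mm10). The brightest probe set on average represented a gene that had more than 1. Genes above the array median in at least 3 arrays were tested (18119 of 30464).

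Groups were compared with limma 3.58.1 in R 4.3.3: medium as the only term over 12 arrays, empirical Bayes with a trend on intensity, a fit with 8 residual degrees of freedom, and Benjamini-Hochberg adjustment over all genes tested. The method was also run on simulated arrays with independent noise and no shift shared by the genes of an array. That run cannot show how the fit behaves under shared shifts such as that of SCR replicate 1, and nothing is concluded from it here. The members, role groups and gene lists were chosen with earlier results of these data known. All 41 measured members are reported by role. Members called in a main comparison, up to 6 in each direction, are given in full, or, with under 3 called, the 5 with the smallest p, together with up to 3 genes of each further list, Myc, and other members for completeness. Promoters were those of the RefSeq table. Alternatives were other filters, quantile normalization, median centring, array weights, no trend, averaged probe sets, the replicate number as a term, each array left out, 6 arrays alone and other thresholds. Figures were drawn with matplotlib 3.10.9.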

Additional observations from a re-analysis of the deposited data

How the results depend on the processing

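Of 361 values of the members' counts and medians recomputed under 23 alternatives, 352 stayed within 1.5 times the count, or within 1 SD for a median, whatever its sign. Part of this was fixed in advance. Averaging probe sets could not change members with 1 probe set, and leaving out an array of another medium could not change a median. The limits were also wide. The SD was 0.074, against main medians of 0.08, -0.02 and 0.08, and 12 rises in SCR+CSH against normal medium passed for 18. The members lower in SCR than in normal medium numbered 7 with array weights against 4, and with 1 array left out 3 to 5. The array weights were 6.14 for SCR replicate 4, and 0.53 and 0.39 for SCR replicates 1 and 3. The members lower in SCR+CSH than in normal medium numbered 5 after quantile normalization against 3. At an adjusted p below 0.01, 3 members were lower in KO medium and 11 higher in SCR+CSH medium than in normal medium, against 6 and 18. Between KO and SCR+CSH medium, 2 members were lower with array weights and 1 with the 6 arrays of the comparison alone, against 0, and 0 to 1 with 1 array left out. The members' median from normal to SCR medium was 0.015 to 0.15 with 1 array left out, and that from SCR to KO medium, with no call, was -0.052 to 0.028 (above 0 without SCR replicate 1) and 0.0011 with array weights. Of 17 calls in SCR against normal medium, single alternatives kept 15 to 17 at the main threshold, and 14 were kept in all of these and at an adjusted p below 0.01. The calls lost in some were Nop58, Grwd1 and Pa2g4. The Npm1 difference of KO from SCR medium turned from -0.05 to 0.019 after quantile normalization, uncalled in both. Replicate numbers are shared between media, but same-number arrays correlated at -0.07 to 0.29 and other pairs at -0.23 to 0.21 (deviations from group means), and 5 of 12 same-number pairs exceeded 0.1. The 3 pairs of replicate 1 lay at 0.14 to 0.29. Those of replicate 2 lay at 0.08, 0.12 and 0.25. The main fit had no term for the replicate number, because the labels do not say that equal numbers share a batch. Whether arrays of one number share a day or culture is not stated and cannot be told from these values. With the replicate block, 12 members rose and 5 fell from normal to SCR medium, and the median was 0.051. Where a cause is not shown by the setting itself, the cause was not tested.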
